A study of Mus musculus with 9 samples.

Results

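The 10 genes described here encode the 5 subunits of the transcription factor NF-kB (Nfkb1, Nfkb2, Rel, Rela and Relb) and 5 of its inhibitors (Nfkbia, Nfkbib, Nfkbie, Nfkbiz and Tnfaip3). They were chosen by name, as the rows of the deposited expression values whose Ensembl identifier carries one of these symbols in GENCODE M21, and they are 10 of 28137 gene identifiers. RNA-seq was performed on RAW264.7 cells, a mouse macrophage line transformed by Abelson leukemia virus. The 9 libraries fall into 3 groups of 3, which received control siRNA (NC siRNA), siRNA against SFRP2 (SFRP2 siRNA) or siRNA against RAB6A (RAB6A siRNA). According to the labels, all 3 groups received 60 nM siRNA for 6 h, then complete medium for 12 h and lipopolysaccharide (LPS, 100 ng/ml) for 24 h, so that no group without LPS enters these comparisons. The titles of the libraries also carry a time of 6 h, and the methods of the study differ from the labels in the siRNA concentration, in the time before stimulation and in naming IFN-γ beside LPS. SFRP2 is a secreted modulator of Wnt signaling and RAB6A a small GTPase of the Golgi apparatus. The SFRP2 siRNA libraries are titled siRNA-1 to siRNA-3, and it is not stated whether each received a different siRNA or a mixture. Nothing in the labels says that libraries came from separate cultures, so that p-values measure the spread between these libraries, which may be technical.

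NF-kB acts as a dimer of Rel-family subunits. The precursors encoded by Nfkb1 and Nfkb2 give rise to p50 and p52, which lack a transactivation domain, and RELA, c-REL and RELB carry one. In resting cells the I-kappa-B proteins hold the dimers in the cytoplasm. After LPS binds TLR4, the I-kappa-B kinase complex marks these inhibitors for degradation, the dimers enter the nucleus, and Nfkbia and Tnfaip3 are among the first genes they induce, as feedback inhibitors.

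Promoter sequences from RefSeq (GRCm38.p6) were searched for the 10-base NF-kB consensus on both strands, from 250 bases before to 50 bases after the gene start. An entry was found for 7 of the 10 genes, and for Nfkb1, Relb and Nfkbiz none was found. A match was present in 5 of these 7, namely Nfkb2, Rel, Nfkbia, Nfkbie and Tnfaip3, and absent from Rela and Nfkbib. Of all 27025 genes with such an entry 5.14% held a match, and of the 8339 with a mean of at least 0.5 FPKM in NC siRNA 6.13% did. The sequences around 4 of these matches are shown because these genes differ in their response below, with the letters of the match in capitals, 5′ to 3′ on the strand of the gene. Windows around the matches of Nfkb2 overlap annotated exons and are not shown. The 4 windows lie at chr11:23771021-23771091 on the - strand (Rel), chr12:55492648-55492706 on the - strand (Nfkbia), chr17:45555564-45555633 on the + strand (Nfkbie) and chr10:19015411-19015452 on the - strand (Tnfaip3).
Rel: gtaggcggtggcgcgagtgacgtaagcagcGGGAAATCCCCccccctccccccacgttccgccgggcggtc
Nfkbia: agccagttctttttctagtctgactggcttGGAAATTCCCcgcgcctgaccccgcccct
Nfkbie: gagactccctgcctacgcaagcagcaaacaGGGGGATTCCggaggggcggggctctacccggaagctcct
Tnfaip3: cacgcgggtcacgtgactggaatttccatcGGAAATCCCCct
Counted from the RefSeq start, the match begins 92 bases before it in Rel, where overlapping matches on both strands make 11 capitals, 29 before in Nfkbia, 106 before in Nfkbie and 12 before in Tnfaip3. A second match of Tnfaip3 begins 125 bases before the start. GENCODE M21 also holds a transcript of Tnfaip3 that starts further upstream, and the window printed lies in an intron of that transcript. A match of letters is a description and does not show that NF-kB binds there.

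The libraries held between 32758729 and 47149258 reads, recovered from the steps of the FPKM values (fragments scaled to gene length and library size). Of 12 macrophage markers, 11 exceeded 1 FPKM in every library, and the exception was Mertk. Their summed level was 3572 to 3913 FPKM in NC siRNA, 3184 to 3417 in SFRP2 siRNA and 3063 to 3199 in RAB6A siRNA. Between RAB6A siRNA and NC siRNA 4 of the 11 tested were called higher and 4 lower (limma). Of all genes tested in this comparison 74.1% were called, so that the count is near the background. Of the 4 lower, Lyz2 was 872 FPKM with NC siRNA and 214 with RAB6A siRNA, Csf1r 73.6 and 27.0, Spi1 130.4 and 62.9, and Fcgr1 66.6 and 39.9. Of the 4 higher, Tyrobp was 209.8 and 413 FPKM in the same order, Fcer1g 419 and 564, Aif1 4.88 and 9.86, and Ptprc 18.3 and 20.6. Of 14 markers of other cell types, 11 were in the deposited values, with no value over 1.32 FPKM. Their summed level was 2.11 to 2.94 FPKM in NC siRNA, 2.31 to 2.85 in SFRP2 siRNA and 2.60 to 3.63 in RAB6A siRNA, and Cd3g was at 0 in every NC siRNA and SFRP2 siRNA library, as was Krt14 with SFRP2 siRNA. Col1a2 (0.31 and 0.825 FPKM) and Pecam1 (0.475 and 0.83 FPKM) were called higher with RAB6A siRNA than with NC siRNA, and both passed the filter through the RAB6A siRNA libraries. The part of all these markers in the results below was not tested. Rab6a was 25.7 ± 1.48 FPKM (SD, n = 3) in NC siRNA and 20.75 ± 0.445 (SD, n = 3) in RAB6A siRNA, a log2 fold change of -0.31 (limma, adjusted p = 0.0024). Over all genes tested in this comparison the median absolute log2 fold change was 0.63, wider than this decrease of Rab6a. Sfrp2 had 2 reads in each NC siRNA library and 4, 4 and 2 in the SFRP2 siRNA libraries, so that it gives no check of that label. In bulk RNA, fewer cells expressing a gene and less RNA of that gene in each cell cannot be told apart.

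With NC siRNA the 10 genes spanned a wide range of levels, and FPKM, being scaled to gene length, allows genes to be compared. Nfkbia, which encodes I-kappa-B alpha, stood highest at 210 ± 9.61 FPKM (SD, n = 3), above 98.6% of the 11979 genes with a mean of at least 0.5 FPKM in this group. Nfkbiz, which encodes the nuclear I-kappa-B zeta, followed at 192 ± 9.71 FPKM. Nfkbib (I-kappa-B beta), Rel, Rela, Nfkb1, Tnfaip3 and Nfkb2 came next, from 51.5 down to 15.5 FPKM. Nfkbie (I-kappa-B epsilon) at 3.50 ± 0.159 FPKM and Relb at 2.64 ± 0.171 FPKM were lowest. In NC siRNA the library values of no pair of neighbours in this order overlapped. Where the values of the libraries separate the genes, the order changed with SFRP2 siRNA for Rel, which stood above Nfkbib. With RAB6A siRNA it changed for Nfkb2, which stood above both Nfkb1 and Tnfaip3. Nfkbie also moved above Tnfaip3 by its mean with RAB6A siRNA, where the libraries of both overlapped. The genes rested on many reads, from at least 284 in a library for Relb and 350 for Nfkbie to 47574 for Nfkbiz.

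**Figure D1:**
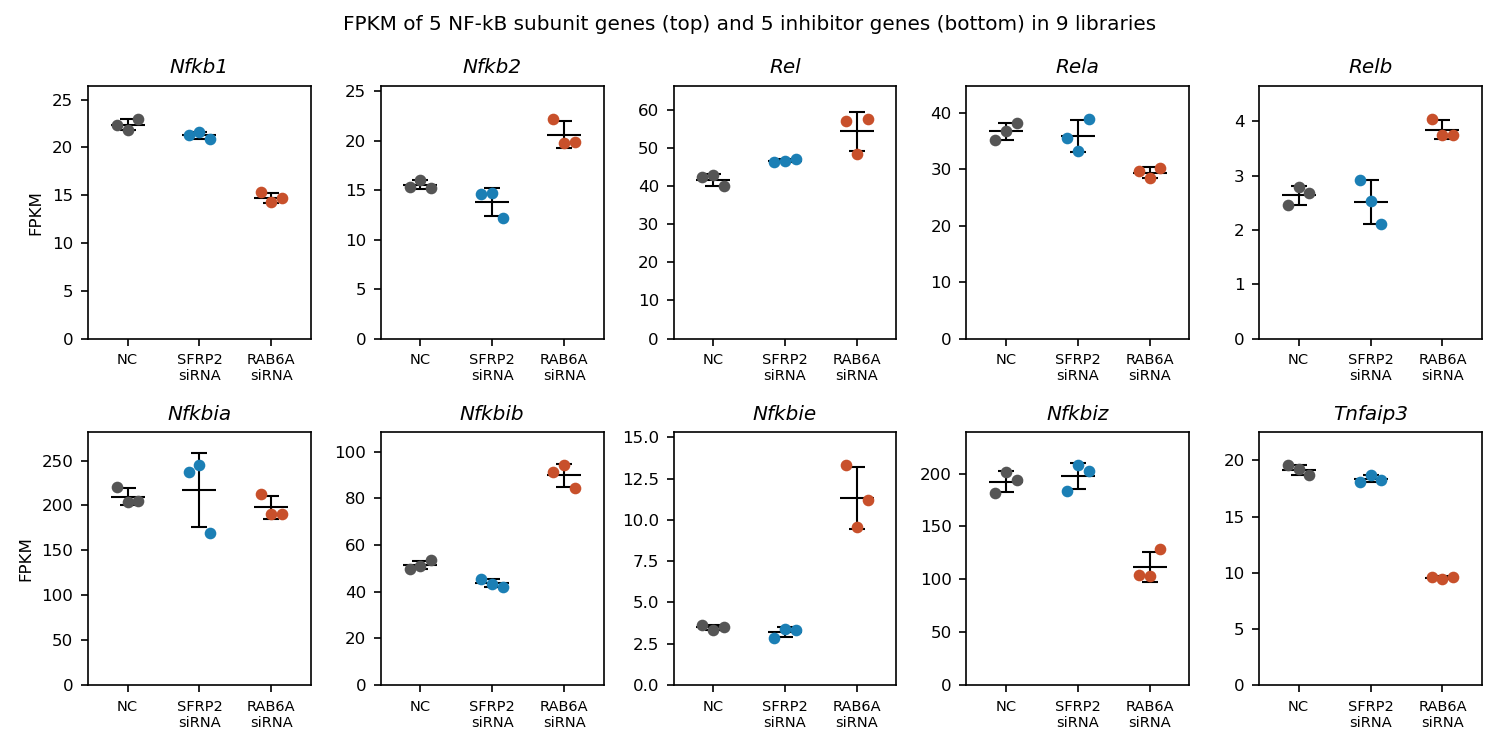
FPKM (linear axes from 0) of the 5 subunit genes (top) and 5 inhibitor genes (bottom) in 3 NC siRNA, 3 SFRP2 siRNA and 3 RAB6A siRNA libraries; points are libraries, the wide bar is the mean and the whiskers are the SD. RAB6A siRNA stands apart from both other groups in every panel but Nfkbia, where the groups overlap.

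The comparison of RAB6A siRNA with NC siRNA asked which of these genes differ when RAB6A is targeted. Of the subunits, Nfkb2, Rel and Relb rose and Nfkb1 and Rela fell, by 1.25 to 1.52-fold. Of the inhibitors, Nfkbie rose 3.15-fold and Nfkbib 1.74-fold, Tnfaip3 fell 2.00-fold and Nfkbiz 1.72-fold, and Nfkbia was not called. In all, 5 of 10 genes were higher and 4 lower at an adjusted p under 0.05 (limma on log2(FPKM + 0.1)). Of all 12712 genes tested 74.1% were called, 37.6% higher and 36.5% lower, so that 9 of 10 is near the background and is not particular to these genes. Without overlap between the groups were the same 9 genes, against 77.4% of all genes tested. The median absolute log2 fold change was 0.56 over the 10 genes and 0.63 over all genes tested. Folds are taken from this log2 scale, which understates the change of low genes.

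Among the subunits, Nfkb1, which encodes p105 and p50, was 22.3, 21.8 and 23.0 FPKM in the NC siRNA libraries and 15.3, 14.2 and 14.7 in the RAB6A siRNA libraries. All 3 RAB6A siRNA libraries lay below all 3 NC siRNA libraries. The log2 fold change of Nfkb1 was -0.60 ± 0.055 (SE; limma, adjusted p = 4.5e-05). Nfkb2, which encodes p100 and p52 of the non-canonical pathway, moved the other way, from 15.3, 16.1 and 15.2 FPKM to 22.2, 19.7 and 19.9. Its log2 fold change was 0.40 ± 0.066 (SE; limma, adjusted p = 0.00087), again with no overlap. The exons of Nfkb2 share 6.52% of their bases with Psd and 11.6% with a noncoding gene, AC114539.1, both on the other strand, and it is not stated whether reads were counted by strand. The FPKM of both partners was lower with RAB6A siRNA, at 0.28 to 0.342 against 0.594 to 0.826 for Psd and 2.94 to 3.51 against 4.29 to 5.15 for AC114539.1.

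Rel encodes c-REL, a transactivating subunit prominent in lymphoid and myeloid cells. Its FPKM was 42.3, 42.8 and 39.95 with NC siRNA and 57.0, 48.5 and 57.6 with RAB6A siRNA. The RAB6A siRNA libraries were all higher, the second least so, and the log2 fold change was 0.38 ± 0.078 (SE; limma, adjusted p = 0.0030). Rela encodes p65, the main transactivating partner of p50. It was 35.2, 36.7 and 38.2 FPKM with NC siRNA and 29.6, 28.3 and 30.2 with RAB6A siRNA, with no overlap and a log2 fold change of -0.32 ± 0.056 (SE; limma, adjusted p = 0.0014). Under quantile normalization this decrease of Rela was -0.15 (limma, adjusted p = 0.0494). Relb, the partner of p52, was the lowest subunit, at 2.45, 2.78 and 2.68 FPKM with NC siRNA and 4.04, 3.75 and 3.75 with RAB6A siRNA. All RAB6A siRNA libraries were again higher, and its log2 fold change of 0.53 ± 0.084 (SE; limma, adjusted p = 0.00077) was the widest increase among the subunits.

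Of the inhibitors, Nfkbie changed most. It was 3.66, 3.34 and 3.50 FPKM with NC siRNA and 13.3, 9.56 and 11.2 with RAB6A siRNA. The groups lay far apart and the RAB6A siRNA libraries spread widely, with a coefficient of variation of 16.5%. The log2 fold change of Nfkbie was 1.66 ± 0.119 (SE; limma, adjusted p = 1.3e-05). It was the single gene of the 10 with an absolute log2 fold change over 1, where 30.1% of all genes tested passed both thresholds, and 13.4% of genes had a wider change. Nfkbib was 49.9, 51.2 and 53.4 FPKM with NC siRNA and 91.2, 94.1 and 84.4 with RAB6A siRNA. No RAB6A siRNA library overlapped NC siRNA, and the log2 fold change was 0.80 ± 0.061 (SE; limma, adjusted p = 1.8e-05). The exons of Nfkbib share 1.94% of their bases with Sirt2 and 14.5% with Ccer2 on the other strand. Sirt2, named here after its values were seen, was 22.0 to 23.7 FPKM with NC siRNA and 39.9 to 43.6 with RAB6A siRNA, and Ccer2 did not exceed 0.16 FPKM. The part of shared bases in the Nfkbib values was not tested.

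Tnfaip3 encodes A20, a ubiquitin-editing enzyme that limits signaling from TLR and TNF receptors to NF-kB. Its libraries were the tightest of the 10 genes with RAB6A siRNA, at 9.59, 9.44 and 9.64 FPKM against 19.55, 19.3 and 18.7 with NC siRNA. The log2 fold change of Tnfaip3 was -0.996 ± 0.052 (SE; limma, adjusted p = 3.8e-06), just short of the fold threshold. Nfkbiz is induced by TLR signaling and acts in the nucleus, where it promotes a set of secondary response genes. Its FPKM fell from 182, 201 and 194 to 104, 103 and 128, with a log2 fold change of -0.79 ± 0.095 (SE; limma, adjusted p = 1.8e-04). Nfkbia was 221, 204 and 204 FPKM with NC siRNA and 213, 190 and 190 with RAB6A siRNA. These groups overlapped and the log2 fold change was -0.09 (95% interval -0.25 to 0.08; limma, adjusted p = 0.292), which does not show that the levels were equal. After quantile normalization it was -0.36 (limma, adjusted p = 0.0036), and after correction for GC content and gene length -0.31 (limma, adjusted p = 0.0040), both past the threshold.

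**Figure D2:**
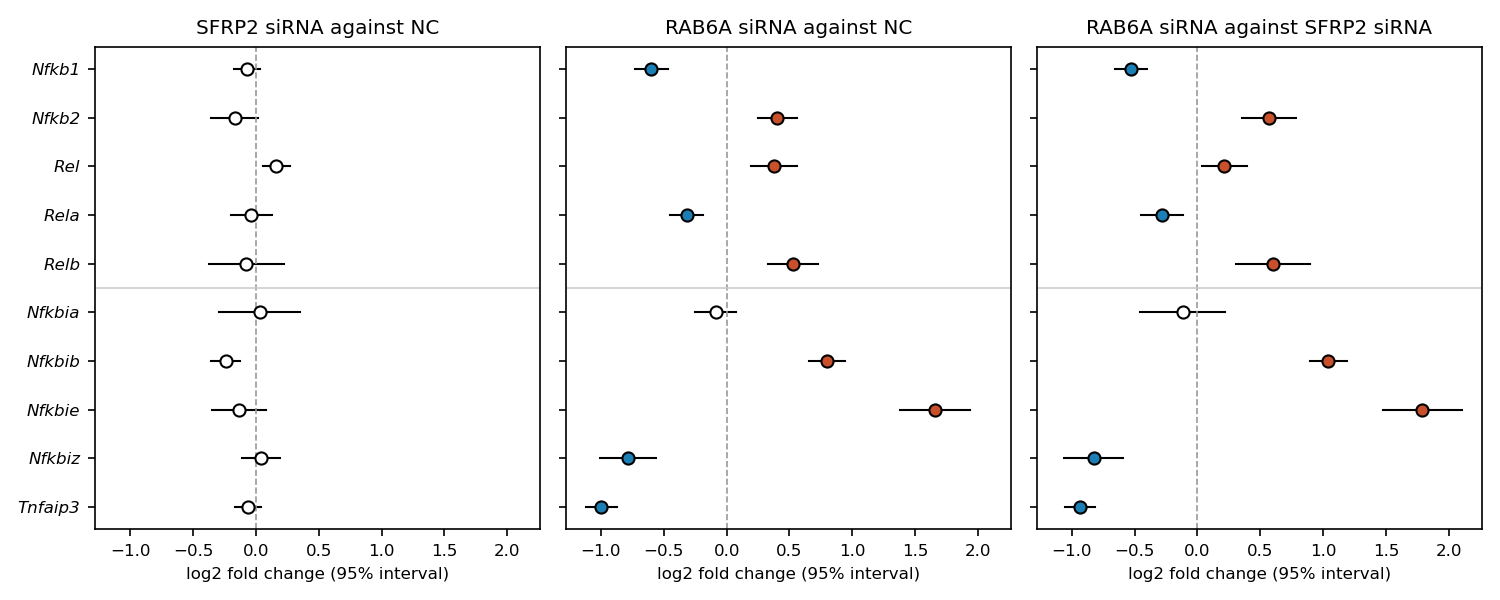
Log2 fold change, on the scale log2(FPKM + 0.1), of the 10 genes in 3 comparisons of 3 libraries with 3, subunits above the grey line and inhibitors below; lines are 95% intervals, red circles mark increases and blue circles decreases at an adjusted p under 0.05 (limma), and open circles were not called. With SFRP2 siRNA against NC siRNA all 10 circles are open, and in both comparisons of RAB6A siRNA the open circle is Nfkbia.

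Read by the promoter matches above, Nfkb2, Rel and Nfkbie rose, Tnfaip3 fell and Nfkbia was not called among the 5 genes with a match. Of the 2 genes without one, Nfkbib rose and Rela fell. Genes with a match were therefore found on both sides of 0.

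The shares of the subunits in their summed FPKM put these changes beside each other within a library. The size of a share, like that of a level, depends on the annotated exons of each gene. The sum was 119 ± 1.28 FPKM (SD, n = 3) with NC siRNA, 120 ± 1.38 with SFRP2 siRNA and 123 ± 7.32 with RAB6A siRNA, and the library values overlapped. Between NC siRNA and RAB6A siRNA, Nfkb1 went from 18.8% ± 0.604 to 12.0% ± 0.407 of this sum and Rela from 30.8% ± 1.10 to 23.9% ± 0.825. Rel took 35.1% ± 1.29 with NC siRNA, 38.9% ± 0.499 with SFRP2 siRNA and 44.2% ± 1.70 with RAB6A siRNA, and no libraries of these 3 groups overlapped. The log2 fold changes of SFRP2 siRNA against NC siRNA ran with GC content, as given below. Corrected for GC content and gene length they were 0.07 for Rel and 0.11 for Rela, and neither was called. Between NC siRNA and RAB6A siRNA, Nfkb2 went from 13.1% ± 0.291 to 16.8% ± 0.892, and Relb from 2.22% ± 0.121 to 3.13% ± 0.151. For each of the 5 shares the groups NC siRNA and RAB6A siRNA did not overlap, and the exact two-sided permutation test gave p = 0.1, the smallest that 3 libraries against 3 allow (0.138 after Benjamini-Hochberg adjustment over 18 tests). With 3 libraries against 3 this test cannot reach a p under 0.05.

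The ratios and shares in this paragraph, except the ratio of Nfkbia to Rela, were computed after the values were seen and are given with no test. The ratio of Nfkb1 to Nfkb2 FPKM was 1.46, 1.36 and 1.51 in the NC siRNA libraries, 1.46, 1.47 and 1.71 in the SFRP2 siRNA libraries and 0.688, 0.721 and 0.738 in the RAB6A siRNA libraries. It was lower in each of the last 3 libraries than in any of the first 6. Whether it lies above or below 1 depends on the annotated exon lengths, 12061 bases for Nfkb1 and 4584 for Nfkb2. It does not show which of both genes had more transcripts. The ratio of Rel to Rela was between 1.05 and 1.20 with NC siRNA, between 1.21 and 1.41 with SFRP2 siRNA and between 1.71 and 1.93 with RAB6A siRNA. Corrected for GC content and gene length, the log2 fold change of SFRP2 siRNA against NC siRNA was 0.07 for Rel and 0.11 for Rela. The higher ratio with SFRP2 siRNA than with NC siRNA was thus not kept by that correction. Of the summed FPKM of the 3 cytoplasmic I-kappa-B genes, Nfkbia took 79.2% ± 1.17 (SD, n = 3) with NC siRNA, 82.0% ± 2.75 with SFRP2 siRNA and 66.1% ± 1.22 with RAB6A siRNA. Nfkbib took 19.5% ± 1.17, 16.8% ± 2.50 and 30.1% ± 1.70 in the same order, and Nfkbie 1.32% ± 0.026, 1.24% ± 0.284 and 3.78% ± 0.482. The ratio of Nfkbia to Rela FPKM was 5.74 ± 0.482 with NC siRNA and 6.74 ± 0.455 with RAB6A siRNA (exact permutation test, p = 0.1), and this direction turned under quantile normalization, where the means were 6.39 and 5.61.

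**Figure D3:**
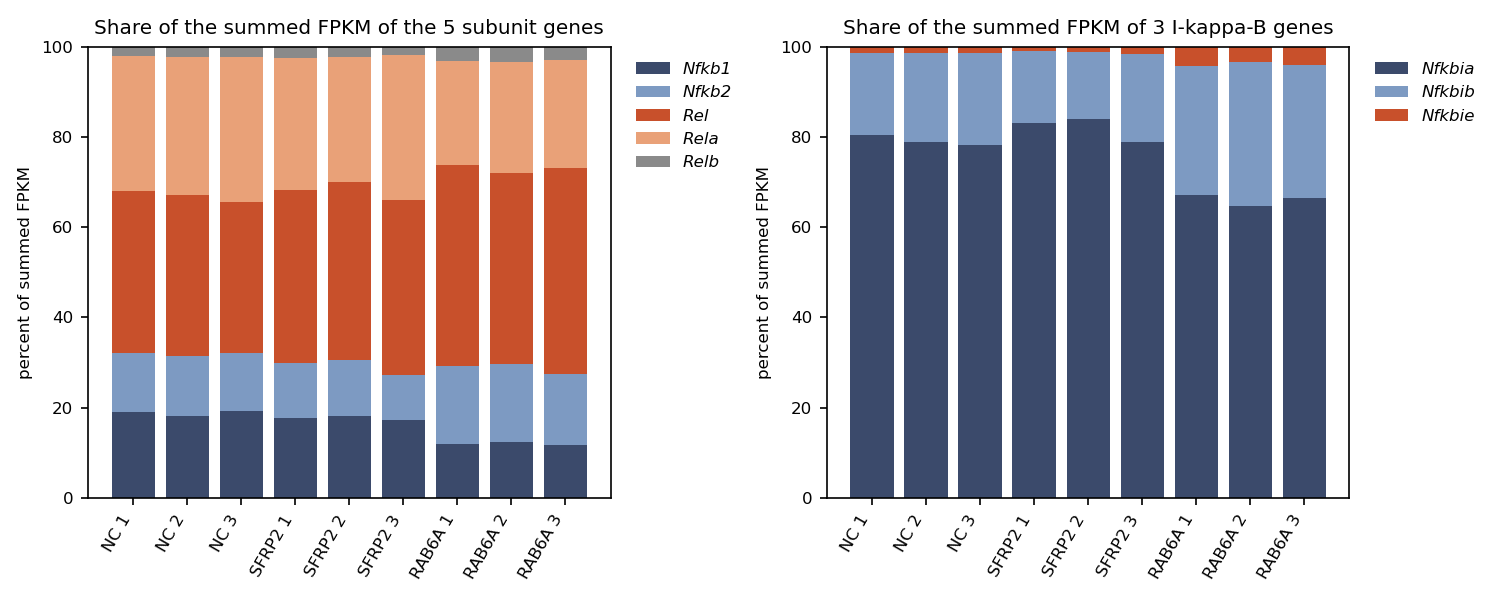
Percent of the summed FPKM of the 5 subunit genes (left) and of 3 I-kappa-B genes (right) in each of the 9 libraries; each bar is a library and its segments add to 100. In the RAB6A siRNA bars Rel, Nfkb2 and Relb take more of the subunit sum, and Nfkbib and Nfkbie more of the I-kappa-B sum, than in the NC siRNA bars.

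The comparison of SFRP2 siRNA with NC siRNA asked which of these genes differ when SFRP2 is targeted. None of the 10 genes was called by limma, and neither was any of the 12017 genes tested (0.0%), with a smallest adjusted p of 0.140. The study itself reports genes changed in both directions by SFRP2 siRNA in these cells, from a test on counts. The absence of calls therefore belongs to limma on FPKM. With voom on the recovered reads 41 genes were called and again 0 of the 10. At an unadjusted p under 0.05, 2 of the 10 genes passed, against 18.5% of all genes. Rel was 46.4, 46.7 and 47.0 FPKM with SFRP2 siRNA, above all NC siRNA libraries, and Nfkbib was 45.4, 43.2 and 42.1 FPKM, below all of them. Their log2 fold changes were 0.16 ± 0.044 for Rel (SE; limma, adjusted p = 0.178) and -0.24 ± 0.049 for Nfkbib (SE; limma, adjusted p = 0.165). Across genes the log2 fold change in this comparison ran with the GC content of the longest transcript (Spearman rho -0.482 over 11903 genes, which are not independent). That of Rel holds 42.5% GC and that of Nfkbib 58.8%. After correction for GC content and gene length the values were 0.07 for Rel and -0.10 for Nfkbib. The same correction widened Nfkb1 to -0.15 (limma, adjusted p = 0.243) and Tnfaip3 to -0.09 (limma, adjusted p = 0.331), brought Nfkb2 to -0.04 (limma, adjusted p = 0.842), and led to no call among the 10 genes.

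In 4 of the 10 genes all SFRP2 siRNA libraries lay on the same side of all NC siRNA libraries, where 24.7% of all genes tested had no overlap. Beside Rel and Nfkbib these were Nfkb1, at 21.3, 21.6 and 20.9 FPKM, and Nfkb2, at 14.7, 14.7 and 12.2 FPKM, both lower and not called. Their log2 fold changes were -0.07 (95% interval -0.18 to 0.03) and -0.17 (-0.36 to 0.02), and without the third SFRP2 siRNA library that of Nfkb2 was -0.08. Tnfaip3 was 18.1, 18.7 and 18.2 FPKM, just overlapping the NC siRNA libraries. Rela (35.5, 33.1 and 38.9 FPKM), Nfkbie (2.83, 3.40 and 3.33 FPKM) and Nfkbiz (184, 208 and 202 FPKM) overlapped NC siRNA too.

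The third SFRP2 siRNA library differed from the other two in several of these genes. Nfkbia was 237 and 245 FPKM in the first and second and 169 in the third, which was below every other library of the study. Relb was 2.92, 2.53 and 2.10 FPKM, also lowest in the third library. The coefficient of variation of Nfkbia was 19.1% with SFRP2 siRNA, 4.58% with NC siRNA and 6.59% with RAB6A siRNA. The interval of the log2 fold change of Nfkbia against NC siRNA, -0.29 to 0.35, was accordingly the widest of the 10 genes. Without the third SFRP2 siRNA library Nfkbia was higher than NC siRNA by 0.20 on the log2 scale (limma, adjusted p = 0.197), and without the first or the second it was -0.04 and -0.07.

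RAB6A siRNA was also compared with SFRP2 siRNA, the other group in which a named gene was targeted. The libraries of RAB6A siRNA are those of the comparison above. The 5 genes that were higher and the 4 that were lower against NC siRNA were called in the same direction here, where 73.4% of all 12764 genes tested were called, 37.6% higher and 35.8% lower. In 9 of the 10 genes the groups did not overlap, against 77.0% of all genes. The log2 fold changes of the inhibitors were 1.79 ± 0.132 for Nfkbie, 1.04 ± 0.062 for Nfkbib, -0.83 ± 0.099 for Nfkbiz and -0.93 ± 0.051 for Tnfaip3 (SE; limma, largest adjusted p = 2.3e-04). Nfkbie and Nfkbib passed the fold threshold, which 31.1% of all genes passed, and Nfkbib did not pass it after correction for GC content and gene length, at 0.66.

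For the subunits the log2 fold changes against SFRP2 siRNA were -0.53 ± 0.054 for Nfkb1, 0.57 ± 0.091 for Nfkb2, -0.28 ± 0.071 for Rela and 0.60 ± 0.124 for Relb (SE; limma, largest adjusted p = 0.0089). Rela was not called under quantile normalization, at -0.15 (limma, adjusted p = 0.112), and was -0.53 after correction for GC content and gene length (limma, adjusted p = 0.0014). The increase of Rel was small, at 0.22 ± 0.076 (SE; limma, adjusted p = 0.0355). It was not called with no filter on low values, with median-of-ratios scaling, without a trend, or when any library but the second of RAB6A siRNA was left out, and adjusted p ranged up to 0.106. It was wider after correction for GC content and gene length, at 0.47 (limma, adjusted p = 4.68e-04), and under quantile normalization, at 0.32 (limma, adjusted p = 0.0089). Nfkbia was not called, at -0.12 (95% interval -0.45 to 0.22; limma, adjusted p = 0.485). It was called lower without the third SFRP2 siRNA library, at -0.29 (limma, adjusted p = 0.0177), under quantile normalization, at -0.49 (limma, adjusted p = 0.0272), and after correction for GC content and gene length, at -0.43 (limma, adjusted p = 0.0232).

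The rest of the pathway was described with 4 lists of genes. Between RAB6A siRNA and NC siRNA, 12 of 24 kinases and upstream signaling genes rose, 7 fell and 5 were not called, with a median log2 fold change of 0.23 where all genes tested had 0.03. For this list and those below, 74.1% of all genes tested were called, 37.6% higher and 36.5% lower, so that the shares called in the lists, 66.7% to 83.8%, are not results about them. Irak2, a kinase of the MyD88 pathway, rose from 17.8 ± 0.536 to 42.1 ± 1.82 FPKM (SD, n = 3), and Map3k14, which encodes the NIK kinase that drives processing of p100, from 2.62 ± 0.177 to 5.73 ± 0.241. Ripk1, a kinase downstream of the TNF receptor, fell from 10.9 ± 0.655 to 2.76 ± 0.319 FPKM, and Myd88, the adaptor of TLR signaling, from 22.0 ± 1.19 to 8.75 ± 0.315. Their log2 fold changes were 1.24, 1.10, -1.95 and -1.32 (limma, largest adjusted p = 1.4e-05).

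Among the 3 other I-kappa-B proteins, Bcl3, a nuclear partner of p50 and p52, rose from 21.5 ± 1.30 to 52.4 ± 3.33 FPKM (SD, n = 3), a log2 fold change of 1.28 (limma, adjusted p = 4.6e-06). Nfkbid, another nuclear member, fell from 24.8 ± 3.00 to 16.8 ± 1.43 FPKM, a log2 fold change of -0.56 (limma, adjusted p = 0.00155), and Nfkbil1 was not called. Of the 17 partners of A20 and enzymes of ubiquitin chains, 7 rose, 7 fell and 3 were not called. Tnip1, which encodes the A20-binding protein ABIN1, fell from 192 ± 10.2 to 97.5 ± 7.41 FPKM (log2 fold change -0.98; limma, adjusted p = 1.7e-05), and Zc3h12a, which encodes the ribonuclease regnase-1, from 31.0 ± 1.65 to 14.8 ± 1.17 FPKM (log2 fold change -1.07; limma, adjusted p = 1.2e-05). Birc2, which encodes the ubiquitin ligase cIAP1, rose from 4.57 ± 0.393 to 9.34 ± 1.23 FPKM (log2 fold change 1.01; limma, adjusted p = 1.0e-04). Ube2v1, a cofactor of the ubiquitin-conjugating enzyme Ube2n, was near the filter and was 0.468 ± 0.131 FPKM with NC siRNA and 1.03 ± 0.119 with RAB6A siRNA. It passed the filter only through the RAB6A siRNA libraries, where it is high, so that its call is not an independent result, and without it 6 genes of this list rose. The list thus held genes on both sides, as did the inhibitors.

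Of 40 widely used NF-kB target genes 37 were tested, of which 15 rose, 16 fell and 6 were not called, with a median log2 fold change of 0.05. Ccl5, a chemokine, rose from 159 ± 14.9 to 1558 ± 274 FPKM (SD, n = 3) and Lcn2, an iron-binding secreted protein, from 19.8 ± 2.68 to 98.3 ± 13.3. Csf2, which encodes GM-CSF, fell from 57.4 ± 0.99 to 13.8 ± 1.81 FPKM and Ccl2, a chemokine for monocytes, from 2142 ± 151 to 664 ± 60.2. Their log2 fold changes were 3.28, 2.31, -2.06 and -1.69 (limma, largest adjusted p = 5.4e-06). In the comparison of SFRP2 siRNA with NC siRNA, 0 of the 80 genes of these lists that were tested were called by limma, and 18 of them had an unadjusted p under 0.05, where 18.5% of all genes did. Of these 18 genes, 12 were among the 37 targets, 3 among the kinases and upstream genes and 3 among A20 partners and ubiquitin enzymes. The median log2 fold change of the targets was -0.14, where all genes tested had -0.01. After correction for GC content and gene length it was -0.09. Whether the targets differ as a set was not tested. Against SFRP2 siRNA, RAB6A siRNA gave 11 increases and 7 decreases among the kinases and upstream genes, 1 and 1 among the other I-kappa-B proteins, 7 and 6 among A20 partners and ubiquitin enzymes, and 17 and 16 among the targets, where 73.4% of all genes were called, 37.6% higher and 35.8% lower. The 7 increases among A20 partners and ubiquitin enzymes count Ube2v1, at 0.323 FPKM with SFRP2 siRNA. It again passed the filter only through the RAB6A siRNA libraries, so that its call is not an independent result. Of the genes with the widest changes against SFRP2 siRNA, Irak3, a negative regulator of TLR signaling, and Tnip2, another A20-binding protein, were not named above. Their log2 fold changes were -1.44 and 1.17 (limma, largest adjusted p = 5.1e-06).

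**Figure D4:**
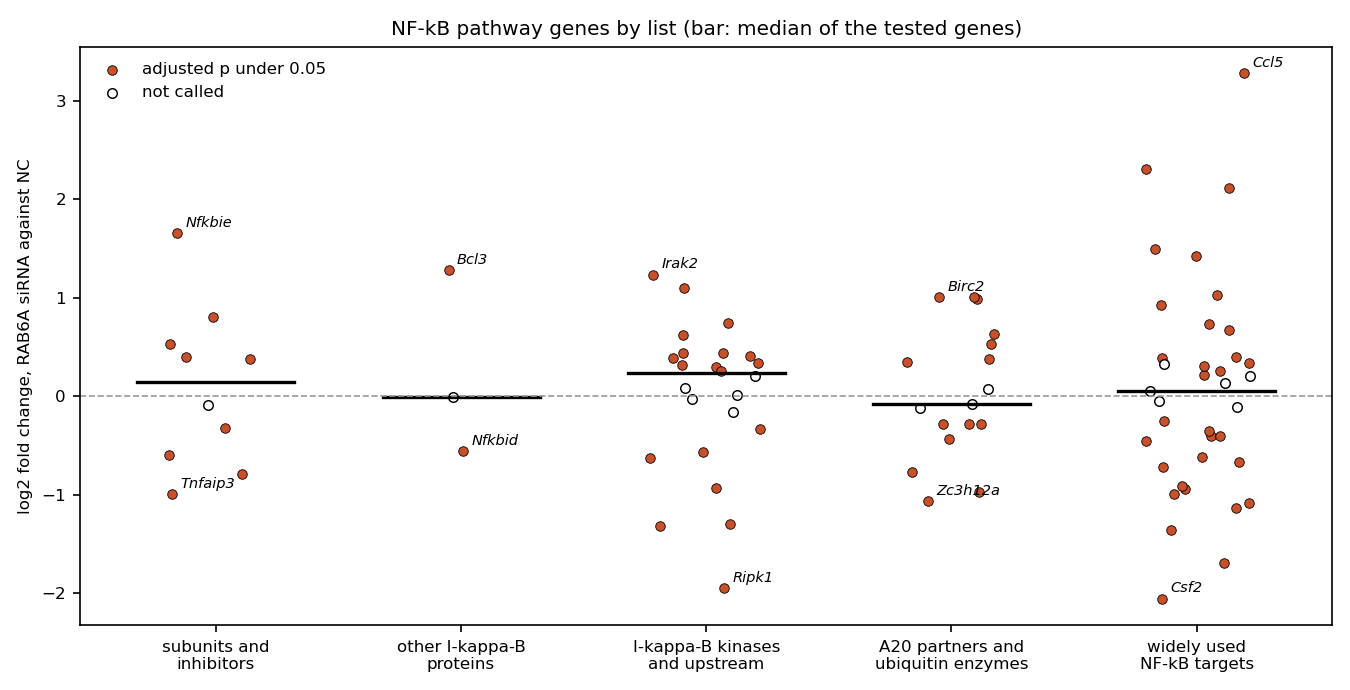
Log2 fold change, on the scale log2(FPKM + 0.1), of RAB6A siRNA against NC siRNA for the 10 subunit and inhibitor genes and for 4 other lists of the NF-kB pathway; each point is a gene, filled points have an adjusted p under 0.05 (limma), bars are medians, and the highest and lowest gene of each list is named. Every list has called genes on both sides of 0, and the medians lie between -0.08 and 0.23.

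The genes whose pattern was most like that of the widest-ranging subunit and inhibitor were looked up by Pearson r of log2(FPKM + 0.1) over the 9 libraries, among 12549 genes. For Nfkbie these were Idnk (r = 0.997), Ubxn11 (r = 0.996) and Spag9 (r = 0.995). Idnk was 6.36 FPKM in NC siRNA, 6.13 in SFRP2 siRNA and 12.4 in RAB6A siRNA. For Relb they were a gene with no name in GENCODE M21 (r = 0.988), Banf1 (r = 0.985) and the pseudogene Gm10036 (r = 0.985). The gene with no name was 0.243 FPKM in NC siRNA, 0.213 in SFRP2 siRNA and 2.40 in RAB6A siRNA. It passed the filter on low values only through the RAB6A siRNA libraries, where it is high, so that its r is not an independent result. Banf1 was 31.5 FPKM in NC siRNA, 29.99 in SFRP2 siRNA and 40.9 in RAB6A siRNA. These values of r rest mainly on the gap between RAB6A siRNA and the other 6 libraries.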

How the data were processed

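Gene expression was measured by mRNA-seq in 9 libraries of RAW264.7 cells, grouped by their labels. The values the authors deposited are FPKM of each gene in each library, and no further scaling between libraries is stated. Per the labels, HISAT2, Subread and featureCounts were used; the genome build, annotation and use of strand are not given in the sources used here. Genes were named from GENCODE M21 (27533 of 28137 identifiers). For 27084 of the named genes (98.4%), FPKM multiplied by exon length gave whole reads within 0.03 of a read in every library, which gave the depth and an alternative with voom.

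The methods of the study name a test for counts, which FPKM are not, so limma 3.58.1 in R 4.3.3 was fitted on log2(FPKM + 0.1) with an intensity trend in eBayes, for genes with a mean of at least 0.5 FPKM over the 6 libraries compared, with Benjamini-Hochberg adjustment over all of these. All 10 members passed this filter in each comparison. Genes were called at an adjusted p under 0.05, and a second rule also asked for an absolute log2 fold change over 1. Shares and single ratios were compared with exact two-sided permutation tests (scipy 1.17.1, Python 3.11.15). The fit was run on simulated data patterned on SFRP2 siRNA against NC siRNA, with few genes changed. That setting differs from the comparisons of RAB6A siRNA, where most genes were called, and no result here rests on it.

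The members, lists and tests were chosen with earlier results of these data known. Named genes were the members, Sfrp2, Rab6a, for each list up to 2 highest and 2 lowest called changes without overlap, and the 3 genes most like the widest-ranging subunit and inhibitor. Cell type markers and genes sharing exon bases with a member were named outside this rule. Alternatives changed the pseudocount (1, 0.01), the filter (none, or a mean of 1 FPKM), the scaling between libraries (median of ratios or quantiles), the trend, the libraries fitted (all 9 together, or each left out) and the model (a replicate block, voom on recovered reads, or log2 values corrected by splines with 5 degrees of freedom for GC content and length, with and without the block).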

Additional observations from a re-analysis of the deposited data

How the results depend on the processing

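Between RAB6A siRNA and NC siRNA, all alternatives kept 5 of the 10 genes higher, and 4 or 5 lower, the fifth being Nfkbia. Against SFRP2 siRNA 8 to 10 of the 10 genes were called. Between SFRP2 siRNA and NC siRNA 0 of the 10 were called under every alternative; over all genes 41 were called with voom, 0 to 1 when a library was left out (1 without the first NC siRNA library) and 0 otherwise. Signs turned in this comparison for 3 genes that were not called. Rela was 0.00249 under quantile normalization, 0.108 after correction for GC content and gene length (also with the replicate block) and -0.0955 to 0.01997 when a library was left out (positive without SFRP2 siRNA replicate 2). Relb was 0.0410 after that correction (also with the replicate block) and -0.184 to 0.0427 when a library was left out (positive without SFRP2 siRNA replicate 3). Nfkbia was -0.0650 to 0.199 when a library was left out (negative without SFRP2 siRNA replicate 1 or 2). Quantile normalization moved the share of Relb to 2.39% with NC siRNA and 2.91% with RAB6A siRNA, and the ratio of Nfkbia to Rela to 6.39 and 5.61. Across genes the log2 fold change ran with exon length in both comparisons of RAB6A siRNA. Spearman rho was -0.214 against NC siRNA and -0.232 against SFRP2 siRNA, over genes that are not independent. With GC content it was 0.0785 and 0.155 in the same order. Nfkb1 has the longest exons of the 10 genes, 12061 bases. Its decrease against SFRP2 siRNA went from -0.53 to -0.32 after correction for GC content and gene length. The cause was not tested. Libraries with the same replicate number did not deviate together (correlations from -0.0847 to 0.0477), and with the replicate block 9 of the 10 genes were called in both comparisons of RAB6A siRNA, and 9103 and 9159 of all genes. Relb and Nfkbie rest on the fewest reads, 284 and 350 in the lowest library.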
